A study of Arabidopsis thaliana with 4 samples.

Results

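The 7 genes BAG1 to BAG7 of Arabidopsis thaliana encode proteins with a BAG domain, and they were picked by their locus codes: AT5G52060 (BAG1), AT5G62100 (BAG2), AT5G07220 (BAG3), AT3G51780 (BAG4), AT1G12060 (BAG5), AT2G46240 (BAG6) and AT5G62390 (BAG7). All 7 were among the 30361 loci measured, each with 1 value per array, and the RefSeq gene table gave each of them its BAG symbol. RNA of wild-type Columbia-0 plants was measured on 4 one-colour NimbleGen arrays, which carry short DNA probes for each gene. On 3 arrays, labelled as biological replicates, was RNA of plants closed in a 340 cm3 box for 30 min with (E)-2-hexenal, a reactive aldehyde that wounded leaves release, at a stated 10 µM. The 1 control array held RNA of plants treated for 30 min with acetonitrile, the solvent of the aldehyde, and each RNA sample came from at least 6 pooled plants. For all 4 samples the labels give a temperature of 25 °C beside a growth temperature of 23 °C. They also give light of 80 µmol per square metre and second, with 14 h of light and 10 h of dark. For hexenal they give 3 µL of a 1 M stock. The labels name no plant organ, no plant age and no second control.

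A BAG domain binds the ATPase domain of HSP70 chaperones and helps them to exchange nucleotide, which sets the pace at which they hold and release client proteins. In Arabidopsis, BAG1 to BAG4 carry a ubiquitin-like domain beside the BAG domain, as BAG proteins of animals can. BAG5, BAG6 and BAG7 carry a calmodulin-binding IQ motif instead, a layout known from plants, so that their work is tied to calcium signals. The family is known for its part in stress tolerance, protein quality control and programmed cell death.

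Median deposited intensities of the 4 arrays lay between 936 and 982. Over all loci, the median absolute log2 difference from the control was 0.36, 0.33 and 0.20 on hexenal arrays 1, 2 and 3. Between pairs of hexenal arrays it ran from 0.23 to 0.31. The labels give 1 control array, so nothing is known of how far control plants differ among themselves, and all tests take the control to vary as the hexenal arrays do. Of 5 markers of green tissue, RBCS1A, RCA, LHCB2.1 and PSAD-1 had control levels at or above the 99.7th percentile of all loci and CAB2 was at the 8.92nd. The 6 flower and seed markers lay at or below the 11.7th percentile. Of 4 root markers, PYK10 lay at the 99.5th percentile, and EXPA7, NRT2:1 and RHD6 at the 29.5th, 11.3rd and 6.62nd. The median log2 differences of these lists were 0.00 (leaf), -0.36 (root) and 0.32 (flower and seed), with no gene called, and CAB2 had the largest at 1.96 ± 0.42 (SE). The 5 flower genes among these markers were highest on hexenal array 1 and the seed gene CRU3 was lowest there (-0.17 against the control). The median difference of the 6 from the control was 0.90 on hexenal array 1 and 0.01 on each of the others. For the root list it was -0.59, -0.11 and -0.31 on hexenal arrays 1, 2 and 3, and for the leaf list -0.06, 0.11 and -0.02. The bright root marker PYK10 differed by -1.17, 0.10 and -0.44. What part these differences have in the results below was not tested.

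BAG6 stood far above its control level on each hexenal array, while the other 6 BAG genes had log2 fold changes from -1.29 to 1.07 and were not called. BAG6 encodes a calmodulin-binding protein that heat induces and that is linked to cell death and to defence against fungi. The deposited intensity of BAG6 was 546 under acetonitrile and 25706, 22191 and 25565 in hexenal replicates 1, 2 and 3. The lowest hexenal array therefore lay far above the control, and the 3 hexenal arrays lay close together. After quantile normalization, the log2 level went from 9.09 to 14.58 ± 0.13 (SD, n = 3), a log2 fold change of 5.49 ± 0.25 (SE) or 44.9-fold.

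BAG6 passed limma's test with Benjamini-Hochberg adjustment over all loci (adjusted p = 0.00608). A gene is called here at an adjusted p under 0.05 with at least a 2-fold change. One of the 7 BAG genes was called, and 0.899% of all loci were called in either direction. In the direction of BAG6, 0.866% of all loci were called. Of the 30361 loci, 9 including BAG6 itself had a log2 fold change as high or higher. Without hexenal replicate 2 the log2 fold change was 5.56, but the adjusted p was 0.102 and no locus of the table was called (1547 loci had an unadjusted p under 0.05 in limma). An exact permutation test of 3 arrays against 1 cannot go below p = 0.25, which BAG6 reached, as did BAG2, BAG5 and BAG7.

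**Figure D1:**
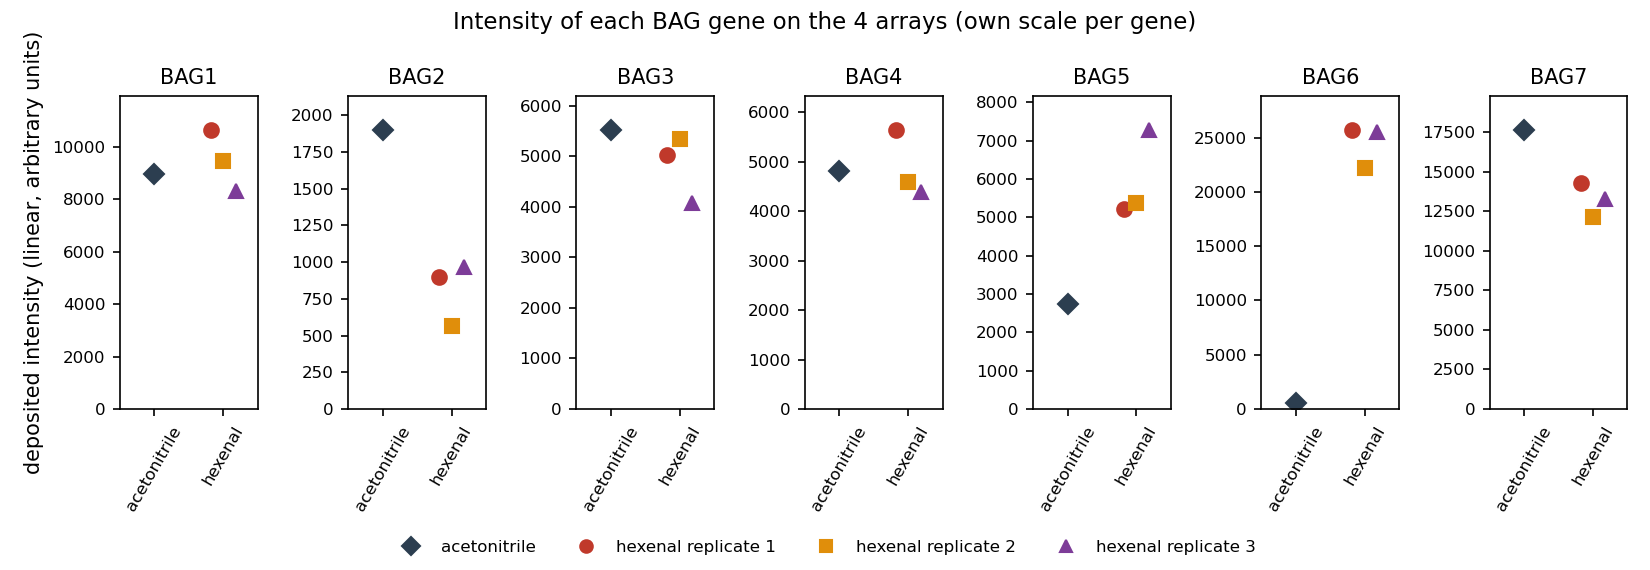
Deposited linear intensity of each BAG gene on the acetonitrile array (diamond) and on the 3 hexenal arrays (circle, square and triangle), each gene on a vertical scale of its own that starts at 0. The 3 BAG6 points under hexenal lie between 22191 and 25706, against 546 under acetonitrile, and the BAG2 points lie below their control.

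The control level of BAG6 was at the 41.6th percentile of all loci. Background left in the deposited values is unknown, and its part in the fold change was not tested. With 16 added before the log, the log2 fold change was 5.45. Its intensities on the hexenal arrays were below the array maxima, which ran from 54755 to 57290. Nearly every locus lies below the maximum of its array, so whether the signal was compressed at the top of the scale was not tested. In RNA of whole samples, a change in the share of cells of a type and a change in RNA per cell cannot be told apart.

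The other calmodulin-binding members gave opposite signs. BAG5, which in Arabidopsis is a mitochondrial protein that links HSP70 to calmodulin, had deposited intensities of 2742 under acetonitrile and 5216, 5367 and 7275 in hexenal replicates 1, 2 and 3. All 3 hexenal arrays lay above the control, with array 3 the highest. The log2 fold change was 1.07 ± 0.30 (SE; 95% interval 0.32 to 1.83), close to the 2-fold threshold. BAG5 had an unadjusted p of 0.0141 in limma's fit and was not called after Benjamini-Hochberg adjustment over all loci (adjusted p = 0.342).

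BAG7 encodes a protein of the endoplasmic reticulum that binds the resident HSP70, BiP, and that moves to the nucleus during heat stress. Its intensity was 17631 under acetonitrile and 14279, 12164 and 13252 in hexenal replicates 1, 2 and 3. Each hexenal array thus lay below the control. The log2 fold change was -0.45 ± 0.24 (SE; 95% interval -1.06 to 0.16), and BAG7 was not called (adjusted p = 0.668 in limma). BAG7 overlaps the neighbouring gene NAC101 in the reference annotation. NAC101 itself had a log2 fold change of 0.59 ± 0.36 (SE), of the opposite sign, and whether probes see both genes was not tested.

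**Figure D2:**
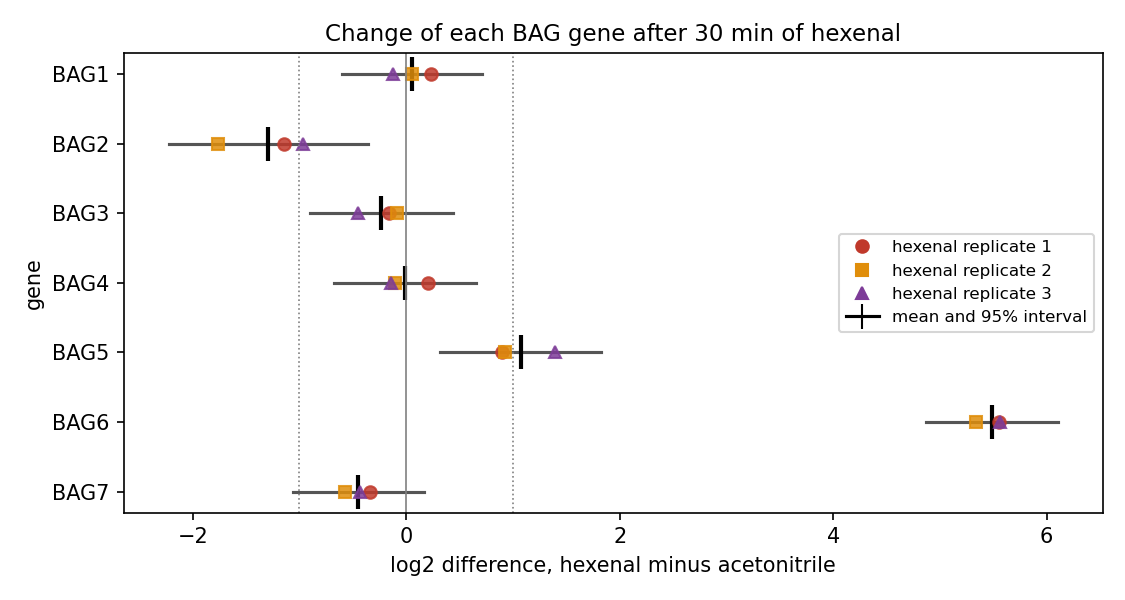
Log2 difference from the acetonitrile array for the 7 BAG genes on each hexenal array (circle, square, triangle), with the mean as a vertical tick and its 95% interval from limma as a horizontal line; dotted lines mark a 2-fold change. The BAG6 interval runs from 4.87 to 6.11, and the intervals of BAG5 (0.32 to 1.83) and BAG2 (-2.23 to -0.36) leave out 0 while the other 4 include it.

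Among the members with a ubiquitin-like domain, none of 4 passed the test (limma, Benjamini-Hochberg), beside 0.899% of all loci called. At an unadjusted p under 0.05 in limma stood 1 of the 4, BAG2, beside 8.75% of all loci. The deposited intensity of BAG2 was 1898 under acetonitrile and 897, 566 and 966 in hexenal replicates 1, 2 and 3. All 3 hexenal arrays were below the control, with array 2 the lowest. The log2 fold change was -1.29 ± 0.37 (SE; 95% interval -2.23 to -0.36), with an unadjusted p of 0.0155 and an adjusted p of 0.357 in limma. Among all loci 10 (0.0329%) were called lower, and 222 including BAG2 had a log2 fold change as low or lower. RefSeq lists 6 transcripts for BAG2 and 1 for each other member, and the array row gives 1 value for the gene.

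BAG1, a cofactor of HSP70 in the removal of plastid proteins that were not imported, was nearly level. Its intensity was 8964 under acetonitrile and 10644, 9478 and 8302 in hexenal replicates 1, 2 and 3, so the control lay inside the hexenal range. The log2 fold change was 0.05 ± 0.26 (SE; 95% interval -0.60 to 0.71). It was -0.036 without hexenal replicate 1, so no direction holds for BAG1.

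BAG3, another member of the ubiquitin-like branch, had intensities of 5520 under acetonitrile and 5034, 5345 and 4073 in hexenal replicates 1, 2 and 3. The control was the highest of the 4 arrays, with hexenal array 2 close to it. The log2 fold change of BAG3 was -0.23 ± 0.27 (SE; 95% interval -0.90 to 0.43; adjusted p = 0.824 in limma).

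BAG4, which has been tied to salt tolerance and to the potassium channels of guard cells, had intensities of 4813 under acetonitrile and 5638, 4585 and 4393 in hexenal replicates 1, 2 and 3. Hexenal array 1 was above the control and the other two were below it. Its log2 fold change was -0.01 ± 0.27 (SE; 95% interval -0.68 to 0.65), and 0.0088 on the values as deposited, so its sign depends on the scaling. The intervals of BAG7 and BAG3 reach to about the 2-fold threshold on the lower side (-1.06 and -0.90), and those of BAG1 and BAG4 stay within it on both sides.

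Read as a family, 2 genes (BAG5 and BAG6) were above the control on all 3 hexenal arrays and 3 (BAG2, BAG3 and BAG7) were below it on all 3. The control thus lay outside the hexenal range for 5 of 7 members, as it did for 58.5% of all loci. Of all loci, 26.1% lay above the control on all 3 arrays and 32.4% lay below, so the family's counts are not far from the background. The median log2 fold change of the 7 genes was -0.01, beside -0.03 for all loci, and the mean was 0.66. At an unadjusted p under 0.05 in limma stood 3 of 7 members (BAG2, BAG5 and BAG6), beside 8.75% of all loci. The median SD between hexenal arrays was 0.19 for the family and 0.24 for all loci.

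**Figure D3:**
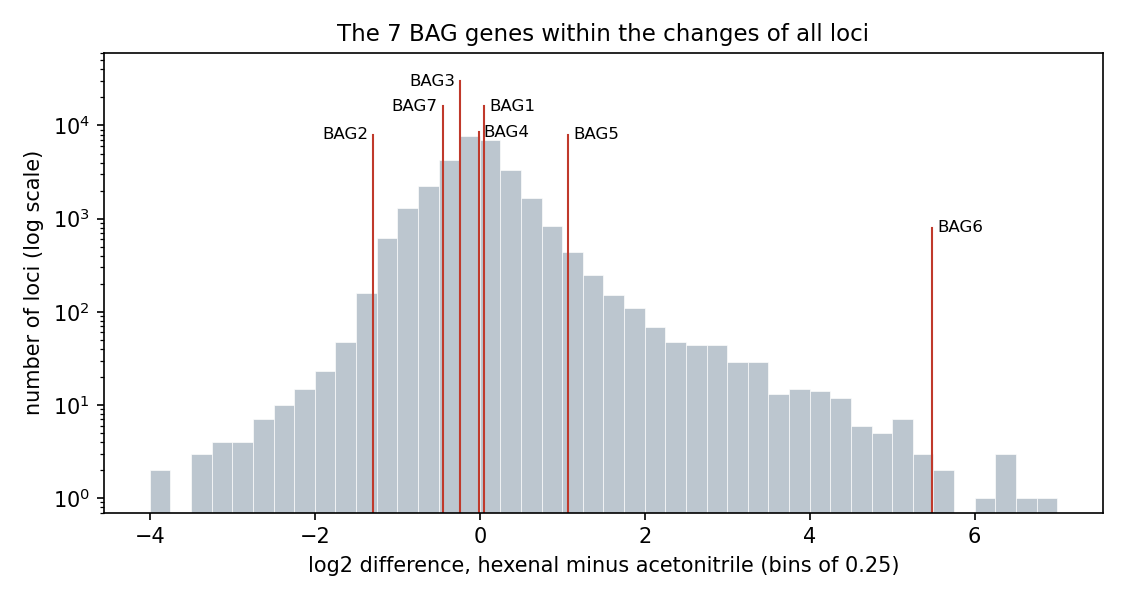
Number of loci (log scale) by log2 difference between hexenal and acetonitrile in bins of 0.25, for all 30361 loci, with a red line at each BAG gene; line heights only separate the names. BAG6 lies at 5.49 in the sparse upper tail, BAG2 at -1.29 and BAG5 at 1.07 lie on the shoulders, and the other 4 lie within 0.5 of 0.

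Differences between members were set up within each array, which removes any shift that an array's loci share. The log2 change of BAG6 exceeded that of BAG5 by 4.66, 4.41 and 4.18 on hexenal arrays 1, 2 and 3. It exceeded that of BAG7 by 5.90, 5.92 and 6.00, and that of BAG2 by 6.70, 7.10 and 6.54. BAG5 in turn exceeded BAG2 by 2.04, 2.69 and 2.36. All 4 pairs kept 1 sign on 3 of 3 arrays, which follows from the members' own values given above and is no further test. The pairs were not part of the plan. Each gave p = 0.25 in an exact permutation test, the smallest that 3 arrays against 1 allow, also after adjustment over the 4 pairs. The 95% intervals of BAG6 and BAG5 did not overlap.

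The protein-coding genes on either side of each member were read next. NAC101 overlaps BAG7, as given above, and no other neighbour overlaps a member in the reference annotation. None of these 14 neighbours was called by limma, beside 0.899% of all loci. An unadjusted p under 0.05 in limma was found for 1 of them (8.75% of all loci), AT5G52050 beside BAG1 at 1.52 ± 0.40 (SE). The neighbours of BAG6, AT2G46230 and AT2G46250, were at 0.27 ± 0.30 and -0.28 ± 0.24 on the log2 scale. The neighbours of BAG5, AT1G12050 and AT1G12064, were at 0.31 ± 0.25 and 0.14 ± 0.24. Beside BAG2, SLK2 was at 0.27 ± 0.23 and AT5G62110 at -0.12 ± 0.25.

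The chaperones that BAG proteins serve were considered by compartment. Of 13 listed HSP70 genes, 3 rose (23.1%, beside 0.899% of all loci) and none fell, all 3 of them encoding cytosolic or nuclear forms. The list is not the whole family: it leaves out the truncated HSP70T-2 (AT2G32120), given below at 5.08 ± 0.24. Hsp70b (AT1G16030), a heat-induced form, had intensities of 1759 under acetonitrile and 16970, 18109 and 26589 in hexenal replicates 1, 2 and 3, a log2 fold change of 3.49 ± 0.34 (adjusted p = 0.0231 in limma). HSP70 (AT3G12580) rose by 2.43 ± 0.28 (adjusted p = 0.0341) and Hsp70-2 (AT5G02490) by 2.12 ± 0.24 (adjusted p = 0.0309). The constitutive HSC70-1 was at 0.12 ± 0.24, AT3G09440 at 0.70 ± 0.26 and ERD2 (AT1G56410) at 1.34 ± 0.65, none of them called. The median of the 13 genes was 0.12, and 0 of them were called by limma without hexenal replicate 2 (4 at an unadjusted p under 0.05). Cytosolic HSP70 genes resemble each other closely, and sharing of probes between them was not tested.

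In the mitochondrion, where BAG5 resides, MTHSC70-2 was at 1.21 ± 0.27 (95% interval 0.54 to 1.88; adjusted p = 0.201 in limma). On hexenal arrays 1, 2 and 3 it differed from the control by 1.03, 1.18 and 1.41, where BAG5 differed by 0.90, 0.93 and 1.39. Neither gene was called, both rest on the same control array, and whether they change together was not tested. The other mitochondrial form, mtHsc70-1, was at 0.01 ± 0.30 (-0.02, 0.29 and -0.25 on hexenal arrays 1, 2 and 3). In the endoplasmic reticulum, where BAG7 binds BiP, BIP1 was at -0.15 ± 0.25, BIP2 at 0.01 ± 0.30 and BIP3, the form most responsive to unfolded proteins, at -0.22 ± 0.34. The chloroplast forms cpHsc70-1 and cpHsc70-2 were at -0.09 ± 0.30 and -0.11 ± 0.24.

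Other proteins that exchange nucleotide on HSP70 belong to the Fes1, HSP110 and GrpE families. Of 11 such genes, 1 rose (9.09%, beside 0.899% of all loci called in either direction) and none fell. Among all loci, 0.0329% were called lower. That gene was Fes1A, which is needed for thermotolerance. Its intensity was 951 under acetonitrile and 16290, 22155 and 24653 in hexenal replicates 1, 2 and 3. Every hexenal array was far above the control, and the log2 fold change of Fes1A was 4.42 ± 0.32 (adjusted p = 0.0125 in limma). Its relative Fes1C was at 0.87 ± 0.26, the HSP110-type gene Hsp70-15 at 0.86 ± 0.26 and the mitochondrial GrpE gene AR192 (MGE2) at 0.61 ± 0.25, and these were not called. Without hexenal replicate 2 none of the 11 was called by limma (3 at an unadjusted p under 0.05). The list's median was 0.52, and 8 of the 11 genes were above the control on all 3 arrays (26.1% of all loci were).

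**Figure D4:**
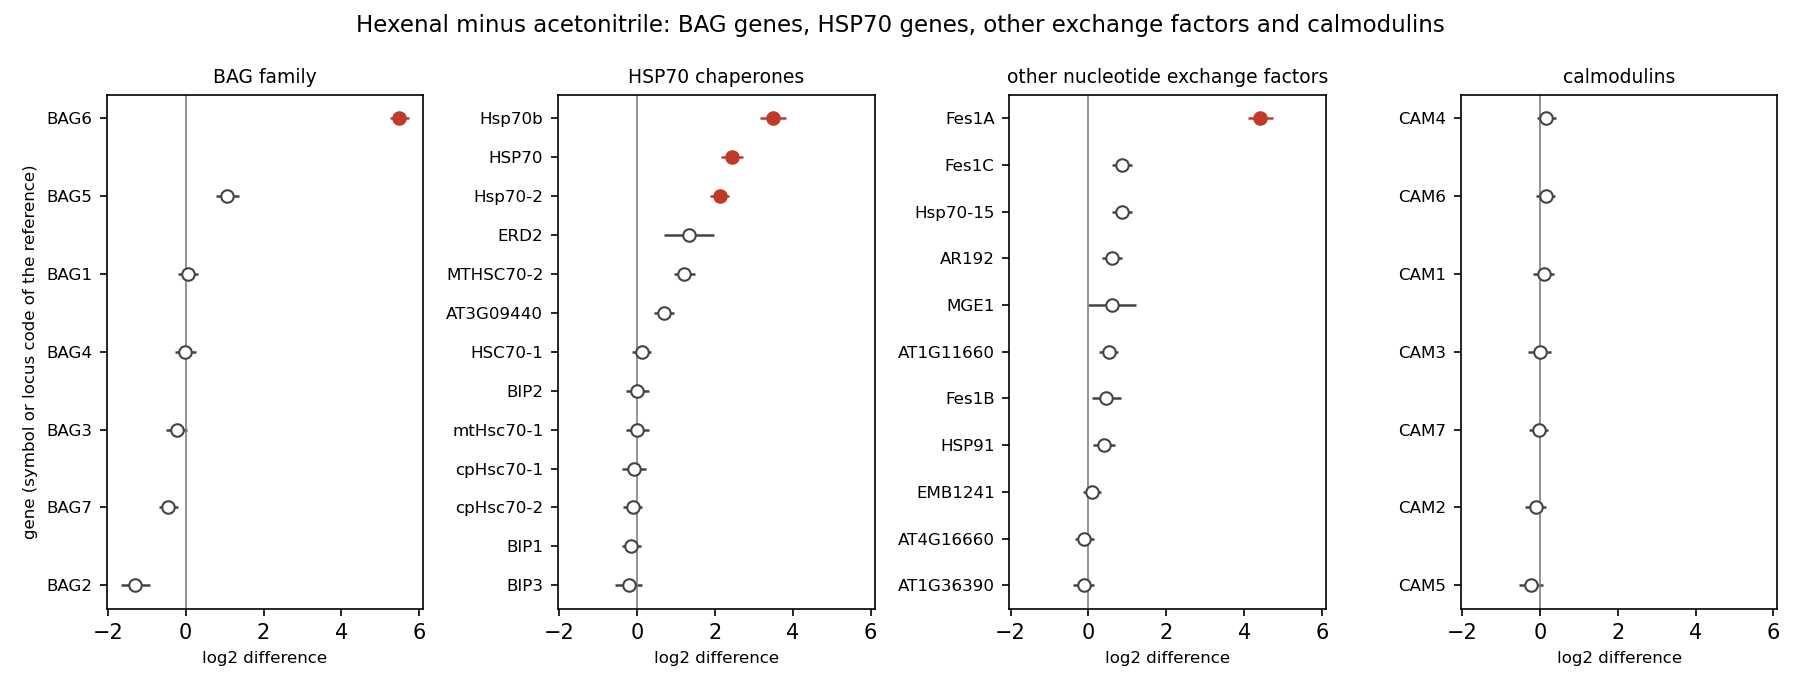
Log2 difference between hexenal and acetonitrile, with its SE as a bar, for the BAG genes, 13 HSP70 genes, 11 genes of other nucleotide exchange factors and 7 calmodulin genes, each list sorted by value; filled red points were called. In the first 3 lists 1, 3 and 1 genes were called, and all 7 calmodulin genes lie between -0.23 and 0.17. HSP91 is the reference's symbol for the HSP110-type gene AT1G79930.

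Calmodulin, the calcium sensor that BAG5, BAG6 and BAG7 bind, is encoded by 7 genes, CAM1 to CAM7. None passed limma with Benjamini-Hochberg adjustment, beside 0.899% of all loci called. Of the 7, 0 had an unadjusted p under 0.05 in limma, beside 8.75% of all loci. The farthest from 0 were CAM5 at -0.23 ± 0.30, CAM4 at 0.17 ± 0.24 and CAM6 at 0.15 ± 0.24 on the log2 scale. The list's median was 0.00.

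Single partners were also read. CHIP, a ubiquitin ligase that marks HSP70 clients for breakdown, was at 0.35 ± 0.25, above the control on all 3 hexenal arrays and not called. WRKY29, a defence transcription factor to which BAG7 binds in the nucleus, was at -1.23 ± 0.38 (unadjusted p = 0.0215, adjusted p = 0.419 in limma), below the control on all 3 arrays. The locus AT1G49050, listed here as APCB1, was at 0.56 ± 0.26. AT3G29310, listed here as BAG8 and so a further BAG gene rather than a partner, was at -0.15 ± 0.29. The reference gives neither of these names, and neither locus was called.

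Loci whose change looked most like that of BAG6 were found by the root mean square distance between their 3 log2 differences from the control and those of BAG6, among 22770 loci outside the dimmest 25% of control levels. The closest was HSP17.6A (AT5G12030), at a distance of 0.40 log2 units, with a log2 fold change of 5.10 ± 0.23. HSP17.6II followed at a distance of 0.41 and a change of 5.14 ± 0.29, and HSP70T-2 at a distance of 0.43 and a change of 5.08 ± 0.24. HSP23.6-MITO was at a distance of 0.44 and a change of 5.19 ± 0.39, and AT2G29500 at 0.45 and 5.07 ± 0.24. HSP17.6A, HSP17.6II and HSP23.6-MITO are small heat shock proteins, which hold unfolding proteins, and HSP70T-2 is a truncated HSP70. AT2G29500 has only its locus code as symbol in the reference, and its class was not looked up. The mean change of BAG6, at 5.49, was above that of all 5. The distance counts the size of a change as well as its pattern over the arrays. By log2 fold change the 5 loci ranked 15, 13, 16, 12 and 18 from the top of all loci, in the order given. The measure rests on 3 differences that share 1 control array, so it describes these arrays.

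**Figure D5:**
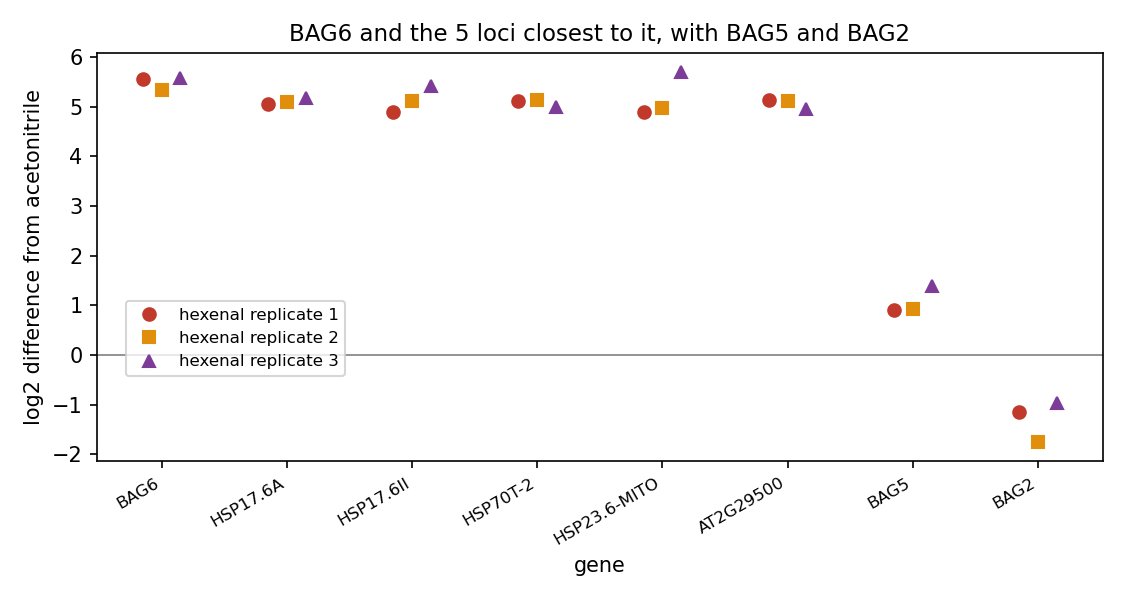
Log2 difference from the acetonitrile array on hexenal arrays 1, 2 and 3 (circle, square, triangle) for BAG6, the 5 loci closest to it, BAG5 and BAG2. The BAG6 points lie between 5.34 and 5.57, those of BAG5 between 0.90 and 1.39 and those of BAG2 between -1.76 and -0.97.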

How the data were processed

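Per the labels, oligo-dT primed cDNA of total RNA was labelled with Cy3. The deposited values are linear intensities, 1 for each locus on each array. The sources used here do not give the background correction, normalization, probe merging or genome build, so no coordinates are printed. Depth does not apply: the number of arrays limits the precision.

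Lower quartiles of log2 intensity differed by 0.201 between arrays, above a tolerance of 0.1, so log2 values were quantile normalized. Of 30361 loci, 29976 matched RefSeq (TAIR10.1), used for names and neighbours. Hexenal was compared with acetonitrile in R 4.3.3 with limma 3.58.1 (lmFit, eBayes), two-sided, with Benjamini-Hochberg adjustment over all loci. Each locus has 2 residual degrees of freedom, from the hexenal arrays.

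Members, lists and the naming rule were chosen with earlier results of these data known. Named are all members, called list genes, up to 3 others per list by size of change, BIP1 to BIP3, the single partners, and the 5 loci nearest a called member. HSC70-1, mtHsc70-1, cpHsc70-1, cpHsc70-2 and the chromosome neighbours were added after their values were seen. Tissue markers serve as a check of the samples. Gene sequences were not used here. Alternatives changed the scaling, the filter on dim loci, the variance moderation, an added value, the fold threshold and the replicates.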

Additional observations from a re-analysis of the deposited data

How the results depend on the processing

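BAG6 kept its direction in all 11 alternatives and its call in 10 of them, with log2 fold changes from 5.45 to 5.56. Dim loci were left out by their mean over all arrays. The control level of BAG6 was at the 41.6th percentile, so it passed the filter on the dimmest 50% through its hexenal arrays, and its call there shows nothing about stability. With 1 hexenal replicate left out, its log2 fold change ran from 5.45 to 5.56, the number of BAG genes called from 0 to 1, of HSP70 genes from 0 to 3, of other exchange factors from 0 to 1 and of all loci from 0 to 406. Each count of 0 came without hexenal replicate 2, where the adjusted p of BAG6 was 0.102 in limma. The residual spread has 1 degree of freedom whichever hexenal replicate is left out, and the cause of the counts of 0 was not tested. No calmodulin gene was called under any alternative. Called loci numbered 480 without the dimmest 50% and 610 with eBayes with trend, against 273.

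BAG2 stayed between -1.45 and -1.06 (adjusted p from 0.145 to 0.786) and BAG5 between 0.91 and 1.16 (0.101 to 0.860), so both kept their direction and neither was called. BAG3 stayed between -0.31 and -0.12 and BAG7 between -0.50 and -0.39. BAG1 ran from -0.036 to 0.14 with 1 replicate left out. BAG4 ran from -0.12 to 0.051 then, with 0.032 without hexenal replicate 2, and was at 0.0088 on the values as deposited. No paired analysis was possible because the acetonitrile group has 1 array, so the groups share fewer than 2 replicate numbers. Signal over background limits dim genes, and no detection calls were used here.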
